A study of Mus musculus with 12 samples.

Results

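Neutrophil granule and maturation genes were followed in Lin-cKit+ (LK) bone marrow cells, the fraction that lacks surface markers of mature lineages, carries the stem cell factor receptor cKit, and holds stem and progenitor cells. The 34 genes were chosen by name for known roles in neutrophils out of 55291 genes in the count matrix; all 34 had a row, and all 34 were among the 15825 genes with enough counts to be tested. They fall into 5 groups by role: 8 genes of the primary granule, 8 of the secondary granule, 7 of the tertiary granule and cytosol, 7 surface and chemotactic receptors, and 4 subunits of the NADPH oxidase. RNA came from 12 individual C57BL/6 mice at 12 months of age, with 3 mice and 3 libraries in each of 4 genotypes. WT mice carried neither change. *Kdm6b*Δ/+ mice had lost 1 of the alleles of *Kdm6b*, which encodes a histone H3K27 demethylase, through *Mx1Cre*, a Cre transgene that responds to pI:pC, a double-stranded RNA that evokes interferon. *Asxl1Y588X*Tg mice carried a transgene for a truncated ASXL1 protein, and *Asxl1Y588X*Tg *Kdm6b*Δ/+ mice carried both. *Mx1Cre* acts in many interferon-responsive cells, not in neutrophil precursors alone. The promoter of the *Asxl1* transgene, and whether the WT and *Asxl1Y588X*Tg mice of these libraries received pI:pC, are not given in the sources used here. LK cells were taken by magnetic beads, so each library is a mixture of cell types, and fewer neutrophil precursors cannot be told apart from less neutrophil RNA per cell. RNA of later neutrophils left in the fraction cannot be told apart from RNA of LK cells either.

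Neutrophils form in the bone marrow from granulocyte-monocyte progenitors through promyelocytes, myelocytes, and metamyelocytes. Granules are filled with what the cell is making at the time: myeloperoxidase and serine proteases enter primary granules in promyelocytes, lactoferrin and other antimicrobial proteins enter secondary granules in myelocytes, and gelatinase enters tertiary granules later. Chemotactic receptors and the oxidase that makes superoxide belong to the later steps of maturation, while cKit is lost early, so LK cells are the place where this program starts. C/EBP factors and PU.1 are known regulators of many of these genes.

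To show the DNA near the start of the most abundant granule genes, the 250 bases before the RefSeq start site (GRCm38.p6) are given for the 2 members with the most counts in each granule group. Capitals mark the letters TTNNGCAA (a C/EBP-like motif) or GAGGAAG (a PU.1-like motif), each searched on both strands, so that TTGCNNAA and CTTCCTC are the same motifs on the opposite strand. The windows lie at chr11:87793534-87793783, plus strand, for *Mpo*; chr10:79886062-79886311, plus strand, for *Elane*; chr9:110419558-110419807, plus strand, for *Ngp*; chr9:111019042-111019291, plus strand, for *Ltf*; chr3:90695722-90695971, minus strand, for *S100a9*; and chr3:90668821-90669070, plus strand, for *S100a8*.
Mpo: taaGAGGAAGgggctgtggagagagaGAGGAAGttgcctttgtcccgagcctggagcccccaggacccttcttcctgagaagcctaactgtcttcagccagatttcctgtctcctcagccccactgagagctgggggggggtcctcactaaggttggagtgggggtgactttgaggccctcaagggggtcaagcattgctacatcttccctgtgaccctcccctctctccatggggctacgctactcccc
Elane: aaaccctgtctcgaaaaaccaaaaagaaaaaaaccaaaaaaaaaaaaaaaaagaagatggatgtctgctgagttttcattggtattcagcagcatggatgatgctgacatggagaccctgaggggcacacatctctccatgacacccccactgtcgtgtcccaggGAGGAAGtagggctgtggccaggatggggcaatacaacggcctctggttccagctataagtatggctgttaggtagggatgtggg
Ngp: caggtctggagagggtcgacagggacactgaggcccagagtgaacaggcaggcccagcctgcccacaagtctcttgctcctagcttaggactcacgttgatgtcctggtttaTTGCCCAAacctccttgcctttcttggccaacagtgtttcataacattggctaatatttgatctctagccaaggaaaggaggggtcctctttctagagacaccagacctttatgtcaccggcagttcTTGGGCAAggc
Ltf: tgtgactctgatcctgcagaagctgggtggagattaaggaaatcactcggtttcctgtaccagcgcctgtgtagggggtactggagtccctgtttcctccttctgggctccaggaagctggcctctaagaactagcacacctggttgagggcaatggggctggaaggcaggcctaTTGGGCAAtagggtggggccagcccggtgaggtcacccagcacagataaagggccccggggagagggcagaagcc
S100a9: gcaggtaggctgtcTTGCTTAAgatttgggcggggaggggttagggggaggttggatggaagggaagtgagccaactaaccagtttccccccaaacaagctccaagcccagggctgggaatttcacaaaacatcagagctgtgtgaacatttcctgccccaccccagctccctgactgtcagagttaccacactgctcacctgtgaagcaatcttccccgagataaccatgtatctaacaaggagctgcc
S100a8: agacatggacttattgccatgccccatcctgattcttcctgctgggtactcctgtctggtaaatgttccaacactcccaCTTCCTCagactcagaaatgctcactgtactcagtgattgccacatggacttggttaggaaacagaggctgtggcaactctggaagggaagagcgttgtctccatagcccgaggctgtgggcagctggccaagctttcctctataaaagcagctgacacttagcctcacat
The *Mpo* and *Elane* windows held the PU.1-like letters, whereas the *Ngp* and *Ltf* windows held the C/EBP-like letters. The first base of a match lay 247 and 224 bases before the RefSeq start of *Mpo*, 85 before that of *Elane*, 138 and 11 before that of *Ngp*, and 75 before that of *Ltf*. GENCODE places the starts of *Mpo*, *Elane*, *Ngp*, *Ltf*, and *S100a8* inside these windows. The *Ngp* match at 11 bases thus lies within the gene as GENCODE annotates it (start at chr9:110419747). The neighbors *S100a9* and *S100a8* differed, with the C/EBP-like letters in the former and the PU.1-like letters in the latter. RefSeq windows of 300 bases (250 before and 50 after the start) were at hand for 30 of the 34 members, 32 windows in all. The C/EBP-like letters were in 10 of these 32 windows and in 10.8% of 32851 windows of all genes, and the PU.1-like letters were in 12 of 32 and in 13.6% of all. Both were in 3 of the 32 windows and in 1.36% of all windows. The printed windows did not stand for their whole groups. Among primary granule genes, *Prtn3* and *Ctsg* held only the PU.1-like letters, *Ms4a3* only the C/EBP-like letters, and *Nkg7* and *Srgn* neither. Among secondary granule genes, *Fcnb* held only the C/EBP-like letters and *Pglyrp1* only the PU.1-like letters. *Lcn2* and *Mmp8* held both, and *Camp* and *Chil3* held neither. A match to letters is a description of the DNA and not evidence of binding.

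The targeted gene was lower in the libraries with the deletion. *Kdm6b* had 1346 to 1622 normalized counts (counts scaled by TMM to the mean library size) in *Kdm6b*Δ/+ against 1869 to 2372 in WT, and 1649 to 1909 in *Asxl1Y588X*Tg *Kdm6b*Δ/+ against 2187 to 2303 in *Asxl1Y588X*Tg, without overlap in either pair. Total counts ran from 14451522 to 23482563 per library, and the lowest count of any member in any library was 261, so counting error was small beside the spread between mice. *Kit* had 5764 to 7759 normalized counts across the libraries. RNA of *Ly6g* (1357 to 2770) and *Itgam* (3233 to 4776), which encode surface markers that lineage depletion of mouse marrow commonly targets, was present in every library. Y-linked transcripts marked 0 of 3 WT, 2 of 3 *Kdm6b*Δ/+, 1 of 3 *Asxl1Y588X*Tg, and 3 of 3 *Asxl1Y588X*Tg *Kdm6b*Δ/+ libraries, so the sex of the mice was not balanced over the genotypes. Genotype and sex cannot be told apart in *Asxl1Y588X*Tg *Kdm6b*Δ/+ against WT. The other comparisons were unbalanced in part, and the main fits had no term for sex.

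Neutrophil transcripts were a large part of the RNA of these bead-enriched fractions in every genotype. The 34 genes took 8.57% to 11.3% of all counts in WT, 9.79% to 10.2% in *Kdm6b*Δ/+, 8.54% to 9.43% in *Asxl1Y588X*Tg, and 8.62% to 10.1% in *Asxl1Y588X*Tg *Kdm6b*Δ/+, and the ranges of WT overlapped those of the other genotypes. On a scale per length (TPM: counts per kilobase of merged exons, scaled to the same total in each library over the genes with a known length), 5 members were among the 10 highest genes of WT cells and 22 were among the 100 highest. *S100a9* was first among the members at 70301 ± 14182 (SD, n = 3) in WT, followed by its partner *S100a8* at 39758 ± 10464 and by *Ngp* (neutrophilic granule protein) at 28236 ± 5861 and *Camp* (cathelicidin) at 15092 ± 3049. *Ltf*, *Mpo*, and *Elane* lay close together on that scale, at 6778 ± 1664, 6684 ± 413, and 6392 ± 409, and their order is not set beyond the spread. Levels of the other members reached down through *Retnlg* at 939 ± 291, *Cybb* at 781 ± 209, *Nkg7* at 489 ± 25.8, and *Prss57* at 110.2 ± 3.69. Among the receptors, *Ly6g* was at 286 ± 82.1, *Itgam* at 98.2 ± 21.2, *Cxcr2* at 66.0 ± 20.1, and *Fpr1* at 39.8 ± 17.9. *Fpr1* was the lowest member, at rank 2819 among all genes in WT.

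Primary granule genes spread most in *Kdm6b*Δ/+ cells, where the SD relative to the mean was the largest of the 4 genotypes for 7 of the 8, all but *Elane*. *Mpo*, the myeloperoxidase that makes hypochlorous acid, had normalized counts of 190137, 165918, and 185028 in WT, 213787, 169012, and 224801 in *Kdm6b*Δ/+, 163884, 173705, and 169835 in *Asxl1Y588X*Tg, and 156834, 183062, and 167376 in *Asxl1Y588X*Tg *Kdm6b*Δ/+. *Kdm6b*Δ/+ replicates 1 and 3 were the highest of the 12 libraries and replicate 2 lay within the range of the other genotypes, so that *Kdm6b*Δ/+ overlapped all 3 of them. *Elane* (neutrophil elastase) gave normalized counts of 53304, 45229, and 50227 in WT, 57678, 50289, and 57910.2 in *Kdm6b*Δ/+, 42933, 48532, and 46009 in *Asxl1Y588X*Tg, and 48957, 57313, and 50035 in *Asxl1Y588X*Tg *Kdm6b*Δ/+. Every *Asxl1Y588X*Tg *Kdm6b*Δ/+ library lay above every *Asxl1Y588X*Tg library for this gene. For *Prtn3* (proteinase 3), the neighbor of *Elane* on chromosome 10, the values were 38029, 34479, and 36641 in WT, 46910.1, 33045, and 48831 in *Kdm6b*Δ/+, 33491, 34335, and 37015 in *Asxl1Y588X*Tg, and 28180.0, 38769.9, and 30918 in *Asxl1Y588X*Tg *Kdm6b*Δ/+. *Kdm6b*Δ/+ replicate 2 stood below the other *Kdm6b*Δ/+ libraries here as well, and *Asxl1Y588X*Tg *Kdm6b*Δ/+ replicate 1 was the lowest of all.

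*Prss57*, a serine protease of azurophil granules, had normalized counts of 2649, 2339.9, and 2421 in WT, 2982, 2512, and 3254 in *Kdm6b*Δ/+, 2191, 2283, and 2408 in *Asxl1Y588X*Tg, and 2063, 2354, and 2126 in *Asxl1Y588X*Tg *Kdm6b*Δ/+. All *Asxl1Y588X*Tg *Kdm6b*Δ/+ libraries lay below all *Kdm6b*Δ/+ libraries, and both genotypes overlapped WT. *Nkg7*, a granule membrane protein also expressed in cytotoxic lymphocytes, had 3790.4, 3255, and 3521 in WT, 4252, 3383, and 4564 in *Kdm6b*Δ/+, 3410.2, 3223, and 3201 in *Asxl1Y588X*Tg, and 2963, 3636, and 3319 in *Asxl1Y588X*Tg *Kdm6b*Δ/+. *Srgn* (serglycin), the proteoglycan that holds granule proteases, gave 14273, 13131, and 14697 in WT, 14040.4, 12316, and 18123 in *Kdm6b*Δ/+, 12837, 13729, and 12350.2 in *Asxl1Y588X*Tg, and 12633, 12742, and 11464 in *Asxl1Y588X*Tg *Kdm6b*Δ/+, and each *Asxl1Y588X*Tg *Kdm6b*Δ/+ value was below each WT value. The others were *Ctsg* (cathepsin G), which ranged from 15510.4 to 23148 over the 12 libraries, and *Ms4a3*, a membrane protein of granulocyte-monocyte progenitors, which ranged from 8486 to 12248. All 8 primary granule genes had their lowest WT value in replicate 2 and their lowest *Kdm6b*Δ/+ value in replicate 2. Exons of *Prss57* (chr10:79781474-79790961, mm10) overlap those of *Fstl3* over 40.7% of their length, and its counts may include reads of the neighbor: the study's methods name a stranded library kit, the sample labels name another kit, and the strand setting of the counting is not given in the sources used here. The same holds, over shorter stretches, for *Mpo* with *Gm11505* (15.0%) and *Prtn3* with *Plppr3* (9.18%).

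Secondary granule genes held the largest part of the neutrophil counts. *Ngp*, which encodes a cathelicidin-like protein, gave normalized counts of 262412, 330672, and 222085 in WT, 302865, 305306, and 254527 in *Kdm6b*Δ/+, 253005, 268220.4, and 220961 in *Asxl1Y588X*Tg, and 256479, 317528, and 327587 in *Asxl1Y588X*Tg *Kdm6b*Δ/+. WT replicate 2 was the highest of all libraries and *Asxl1Y588X*Tg replicate 3 the lowest, and WT replicate 3 lay close to the latter. *Ltf* (lactoferrin, which binds iron) had normalized counts of 166243, 232914, and 152588 in WT, 204815, 184828, and 181249 in *Kdm6b*Δ/+, 177238, 174647, and 151398 in *Asxl1Y588X*Tg, and 168157, 200138, and 198479 in *Asxl1Y588X*Tg *Kdm6b*Δ/+ and was highest and lowest in the same libraries as *Ngp*. *Chil3* (Ym1, a chitinase-like protein) had 86722, 88362, and 62194 in WT, 74897, 76179, and 69749 in *Kdm6b*Δ/+, 68544, 60026, and 63775 in *Asxl1Y588X*Tg, and 50538, 55138, and 64200.0 in *Asxl1Y588X*Tg *Kdm6b*Δ/+. This gene did not follow the others: *Asxl1Y588X*Tg *Kdm6b*Δ/+ libraries lay below all *Kdm6b*Δ/+ libraries, and *Asxl1Y588X*Tg libraries overlapped WT only through WT replicate 3. *Mmp8* (neutrophil collagenase) varied most of the group, with 3939, 8528, and 4607 in WT, 4183, 5462, and 3562 in *Kdm6b*Δ/+, 7139, 4888, and 4028 in *Asxl1Y588X*Tg, and 5205, 6644, and 7628 in *Asxl1Y588X*Tg *Kdm6b*Δ/+. Its values within WT differed more than the genotype means. The remaining members kept within narrower ranges, from 10179 to 15159 for *Fcnb* (ficolin B), 66787 to 109226 for *Camp*, 65358 to 97661 for *Lcn2* (lipocalin 2, which binds bacterial siderophores), and 10086 to 13928 for *Pglyrp1* (a peptidoglycan recognition protein).

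In the tertiary granule and cytosol group, *S100a9* and *S100a8*, the subunits of calprotectin, had the most counts. *S100a9* had normalized counts of 273882, 350721, and 241992 in WT, 306205, 286177, and 277251 in *Kdm6b*Δ/+, 274086, 264909, and 240935 in *Asxl1Y588X*Tg, and 230080.1, 300612, and 288483 in *Asxl1Y588X*Tg *Kdm6b*Δ/+. *S100a8* had 185057, 278637, and 186626 in WT, 212795, 224181, and 228374 in *Kdm6b*Δ/+, 206717, 190392, and 168313 in *Asxl1Y588X*Tg, and 180992, 206246, and 193843 in *Asxl1Y588X*Tg *Kdm6b*Δ/+. Both were highest in WT replicate 2, and all *Asxl1Y588X*Tg *Kdm6b*Δ/+ libraries lay below all *Kdm6b*Δ/+ libraries for *S100a8* but not for *S100a9*. *Mmp9* (gelatinase B, the defining enzyme of tertiary granules) gave 9533, 18014, and 11206 in WT, 10164, 11925, and 9620.0 in *Kdm6b*Δ/+, 17055, 12069, and 11187 in *Asxl1Y588X*Tg, and 10743, 14819, and 15104 in *Asxl1Y588X*Tg *Kdm6b*Δ/+. *Retnlg*, a resistin-like protein of maturing neutrophils, had 3898, 5861, and 3379 in WT, 3350.2, 4197, and 3578 in *Kdm6b*Δ/+, 7527, 3299.9, and 3944 in *Asxl1Y588X*Tg, and 3893, 5277, and 5505 in *Asxl1Y588X*Tg *Kdm6b*Δ/+. *Asxl1Y588X*Tg replicate 1 was the highest library for *Retnlg* and stood well above the other *Asxl1Y588X*Tg mice. Of the rest, *Padi4* (the enzyme that citrullinates histones in neutrophil traps) ranged from 2376 to 3826, *Anxa1* (annexin A1) from 25235 to 40606, and *Serpinb1a* (an inhibitor of neutrophil serine proteases) from 11084 to 15491.

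Receptor genes included the members with the fewest counts. *Cd177*, a surface glycoprotein of neutrophils, was the most abundant, with normalized counts of 23026, 33499, and 23478 in WT, 30165, 28905, and 25980.1 in *Kdm6b*Δ/+, 25963, 28353, and 23597 in *Asxl1Y588X*Tg, and 26013, 31439, and 31053 in *Asxl1Y588X*Tg *Kdm6b*Δ/+. *Itgam* (CD11b) had 3637, 4776, and 3233 in WT, 3654, 3905, and 3709.5 in *Kdm6b*Δ/+, 3968, 3619, and 3432 in *Asxl1Y588X*Tg, and 3647, 4261, and 4263 in *Asxl1Y588X*Tg *Kdm6b*Δ/+, and *Ly6g* had 1725, 2770.3, and 1855 in WT, 2287, 2277, and 1854 in *Kdm6b*Δ/+, 2076, 1697, and 1357 in *Asxl1Y588X*Tg, and 1876, 2404, and 2301 in *Asxl1Y588X*Tg *Kdm6b*Δ/+. For all 3 genes replicate 2 was the highest of the WT libraries. Exons of *Itgam* (chr7:128062640-128118491, mm10) share 68.7% of their length with the annotated gene *Gm49368*, so reads counted for the pair are uncertain. *Cxcr2*, the chemokine receptor that draws mature neutrophils out of the marrow, had 1219.5, 2082, and 1432 in WT, 1674, 1651, and 1713 in *Kdm6b*Δ/+, 2591, 1392, and 1796 in *Asxl1Y588X*Tg, and 1643, 2354, and 2028 in *Asxl1Y588X*Tg *Kdm6b*Δ/+. *Fpr1*, a receptor for formylated bacterial peptides, had 265.3, 609.6, and 360.5 in WT, 328, 424, and 311 in *Kdm6b*Δ/+, 678, 435, and 412 in *Asxl1Y588X*Tg, and 443, 545, and 627 in *Asxl1Y588X*Tg *Kdm6b*Δ/+. *Asxl1Y588X*Tg *Kdm6b*Δ/+ libraries lay above all *Kdm6b*Δ/+ libraries for *Fpr1*, while *Asxl1Y588X*Tg replicate 1 and WT replicate 2 lay among the highest values. *Fpr2* ranged from 931 to 1904 and *Ltb4r1*, the leukotriene B4 receptor, from 2232 to 3722.

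Among NADPH oxidase genes, *Cybb* varied most within genotypes and *Ncf1* least. *Cybb* (gp91phox, the membrane-bound catalytic subunit) had normalized counts of 30896, 46056, and 30041 in WT, 35653, 36289, and 34566 in *Kdm6b*Δ/+, 33536, 33593, and 28329.7 in *Asxl1Y588X*Tg, and 35361, 40123, and 35521 in *Asxl1Y588X*Tg *Kdm6b*Δ/+. All *Asxl1Y588X*Tg *Kdm6b*Δ/+ libraries lay above all *Asxl1Y588X*Tg libraries, and WT replicate 2 was above both. *Ncf1* (p47phox, a cytosolic subunit) gave 15002, 17984, and 15169.9 in WT, 16645, 17053, and 17286 in *Kdm6b*Δ/+, 15325, 15112, and 14691 in *Asxl1Y588X*Tg, and 14567, 17785, and 15888 in *Asxl1Y588X*Tg *Kdm6b*Δ/+, a ratio of highest to lowest library of 1.23 that was the smallest among the 34 members. *Cyba* (p22phox) ranged from 4943 to 6709.6 and *Ncf4* (p40phox) from 4086 to 5784. Exons of *Ncf1* overlap *Gtf2ird2* over 11.1% of their length.

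**Figure D1:**
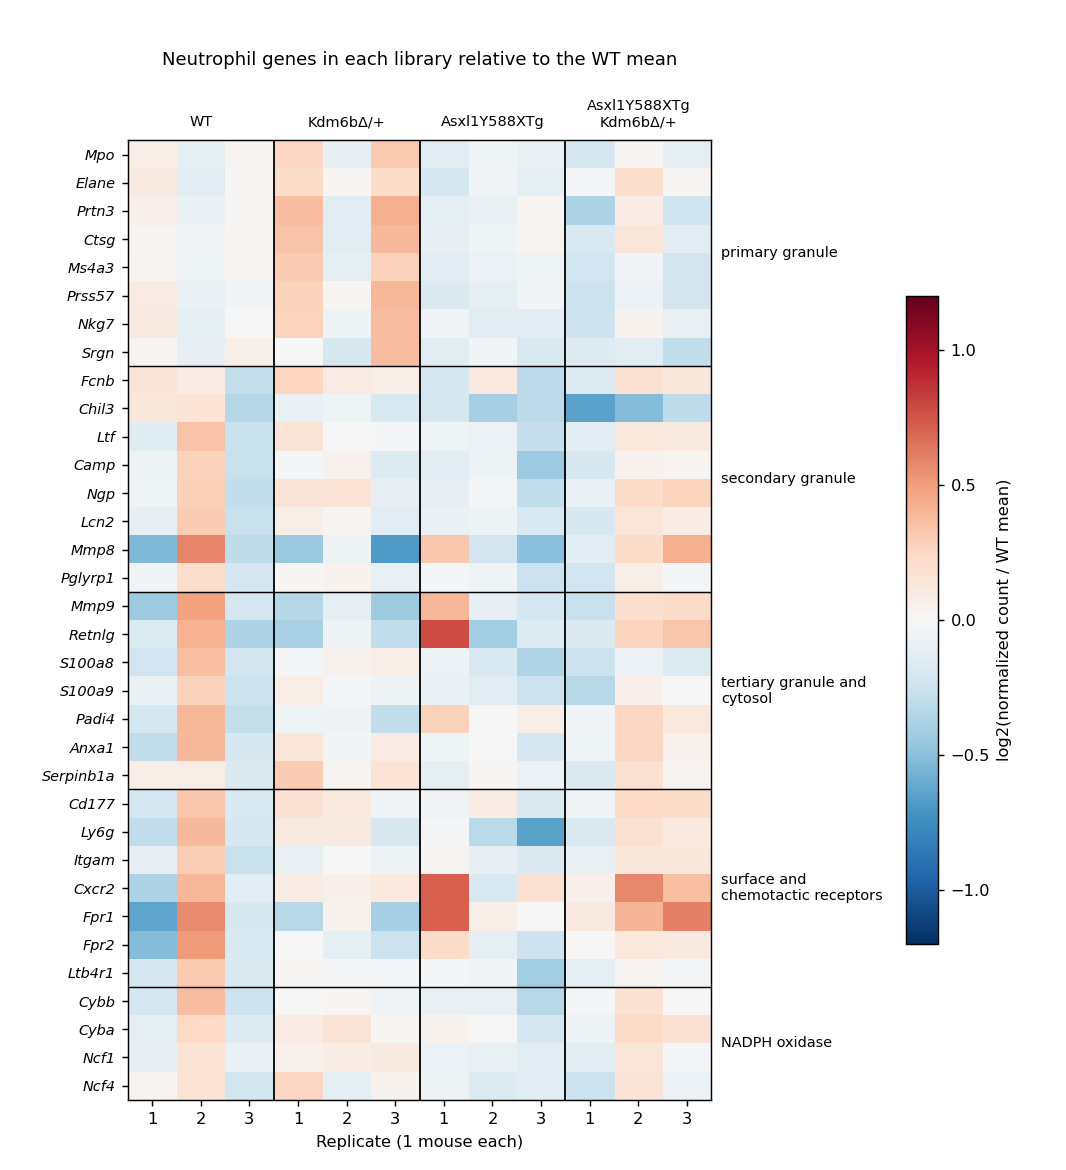
Log2 ratio of each library's normalized count to the WT mean for the 34 genes (rows, by role) in the 12 libraries (columns, 3 mice per genotype). WT replicate 2 stands out, with the highest WT value for 25 of 34 genes and the lowest WT value for all 8 primary granule genes, and *Asxl1Y588X*Tg *Kdm6b*Δ/+ replicate 1 has the lowest value of its genotype for 33 of 34 genes.

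The genes varied between mice of 1 genotype more than other well expressed genes did, and genes of 1 group often had their extremes in the same library. The SD of log2 normalized counts within genotypes had a median of 0.19 over the 34 members, against 0.14 over the 9893 tested genes that averaged 100 normalized counts or more. Within the same decile of mean normalized count, 20 members were over the 90th percentile of the tested genes. Level was not matched more finely than by decile. The spread was largest for *Mmp8* (0.42), *Retnlg* (0.41), and *Fpr1* (0.40), and smallest for *Ncf1* (0.10) and *Elane* (0.11). WT replicate 2 had the highest WT value for 7 of 8 secondary granule genes, all 7 tertiary granule and cytosol genes, all 7 receptor genes, and all 4 oxidase genes. In *Asxl1Y588X*Tg *Kdm6b*Δ/+ cells, replicate 1 was lowest for 33 of 34 members and replicate 2 highest for 27. In *Asxl1Y588X*Tg cells, replicate 3 was lowest for 22 members, 7 of the 8 secondary granule genes among them. In *Kdm6b*Δ/+ cells, replicate 3 was highest for 7 of 8 primary granule genes and lowest for all 8 secondary granule genes.

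Sums over each group show the same libraries apart. Primary granule genes summed, in CPM (counts scaled to library size), to 18787, 16555, and 18234 in WT, 21292, 16825, and 22337 in *Kdm6b*Δ/+, 16173, 17193, and 16979 in *Asxl1Y588X*Tg, and 15680.2, 18609.9, and 16489 in *Asxl1Y588X*Tg *Kdm6b*Δ/+. Secondary granule genes summed, in CPM, to 40109, 50902, and 34266 in WT, 44727, 43885, and 39069.6 in *Kdm6b*Δ/+, 39027, 39547, and 33932 in *Asxl1Y588X*Tg, and 36985, 44749.6, and 45456 in *Asxl1Y588X*Tg *Kdm6b*Δ/+. The ratio of these sums, which no scaling of library size can alter, was 2.13, 3.07, and 1.88 in WT, 2.10, 2.61, and 1.75 in *Kdm6b*Δ/+, 2.41, 2.30, and 1.998 in *Asxl1Y588X*Tg, and 2.36, 2.40, and 2.76 in *Asxl1Y588X*Tg *Kdm6b*Δ/+. It was highest in WT replicate 2 and lowest in *Kdm6b*Δ/+ replicate 3, and the 4 genotypes overlapped: the means were 2.36 ± 0.630 in WT, 2.15 ± 0.432 in *Kdm6b*Δ/+, 2.24 ± 0.214 in *Asxl1Y588X*Tg, and 2.51 ± 0.218 in *Asxl1Y588X*Tg *Kdm6b*Δ/+ (SD, n = 3 each). The ratio of oxidase to primary granule sums was 0.170, 0.262, and 0.170 in WT, 0.172, 0.217, and 0.160 in *Kdm6b*Δ/+, 0.209, 0.194, and 0.176 in *Asxl1Y588X*Tg, and 0.216, 0.214, and 0.216 in *Asxl1Y588X*Tg *Kdm6b*Δ/+, so that all *Asxl1Y588X*Tg *Kdm6b*Δ/+ libraries lay above all *Asxl1Y588X*Tg libraries, while both overlapped WT and *Kdm6b*Δ/+. Receptor genes summed, in CPM, to 1900.0, 2808, and 1945 in WT, 2416, 2352, and 2141 in *Kdm6b*Δ/+, 2264, 2256, and 1932 in *Asxl1Y588X*Tg, and 2146, 2589, and 2542 in *Asxl1Y588X*Tg *Kdm6b*Δ/+, so they made up a small share of the neutrophil counts in every mouse.

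**Figure D2:**
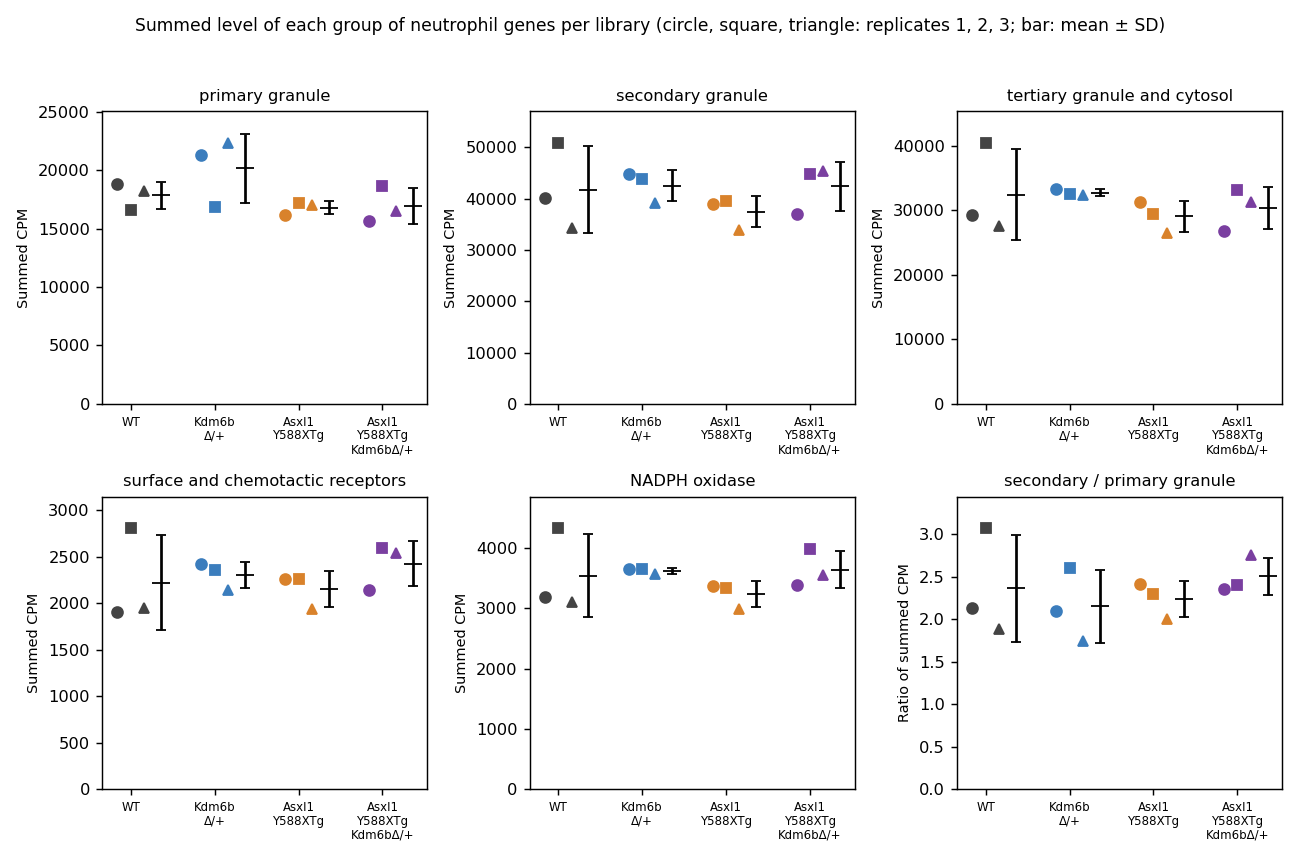
Summed CPM of the 5 groups of neutrophil genes and the ratio of secondary to primary granule sums, per library (circle, square, and triangle for replicates 1, 2, and 3; bars, mean ± SD of 3 mice). Every genotype overlaps WT in each panel, and WT replicate 2 (square) has the highest sum of all libraries in 4 of the 5 groups and the lowest WT sum for the primary granule.

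No member passed the test in any comparison. Calls needed both a fold change above 1.5 and an adjusted p under 0.05 by edgeR's quasi-likelihood test, where the Benjamini-Hochberg adjustment ran over the 15825 genes. Members called numbered 0 of 34 in all 5 pairwise comparisons and in the interaction, where the share of all genes called was 1.61% for *Asxl1Y588X*Tg against WT, 0.0948% for *Kdm6b*Δ/+ against WT, 1.74% for *Asxl1Y588X*Tg *Kdm6b*Δ/+ against *Asxl1Y588X*Tg, 0.215% for *Asxl1Y588X*Tg *Kdm6b*Δ/+ against WT, 0.0948% for *Asxl1Y588X*Tg *Kdm6b*Δ/+ against *Kdm6b*Δ/+, and 0.0126% for the interaction. The comparisons share libraries, so their values are not independent of each other. DESeq2 called 0 members in the other comparisons and 1 (*Fpr1*) in *Asxl1Y588X*Tg *Kdm6b*Δ/+ against *Kdm6b*Δ/+. The intervals of most members stayed within a 1.5-fold change. The 95% interval of the log2 fold change lay within 0.58 of 0 for 26 of 34 members in *Asxl1Y588X*Tg against WT, 29 in *Kdm6b*Δ/+ against WT, 29 in *Asxl1Y588X*Tg *Kdm6b*Δ/+ against *Asxl1Y588X*Tg, 27 in *Asxl1Y588X*Tg *Kdm6b*Δ/+ against WT, and 27 in *Asxl1Y588X*Tg *Kdm6b*Δ/+ against *Kdm6b*Δ/+. For all genes tested these shares were 49.6%, 51.3%, 55.0%, 51.4%, and 56.0%, and for those that averaged 100 normalized counts or more, as all 34 members did, they were 79.2%, 81.9%, 86.1%, 81.9%, and 87.8%, against 76.5%, 85.3%, 85.3%, 79.4%, and 79.4% of the members. *Mmp8*, *Retnlg*, and *Fpr1* had intervals beyond that limit in each of the 5 comparisons.

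**Figure D3:**
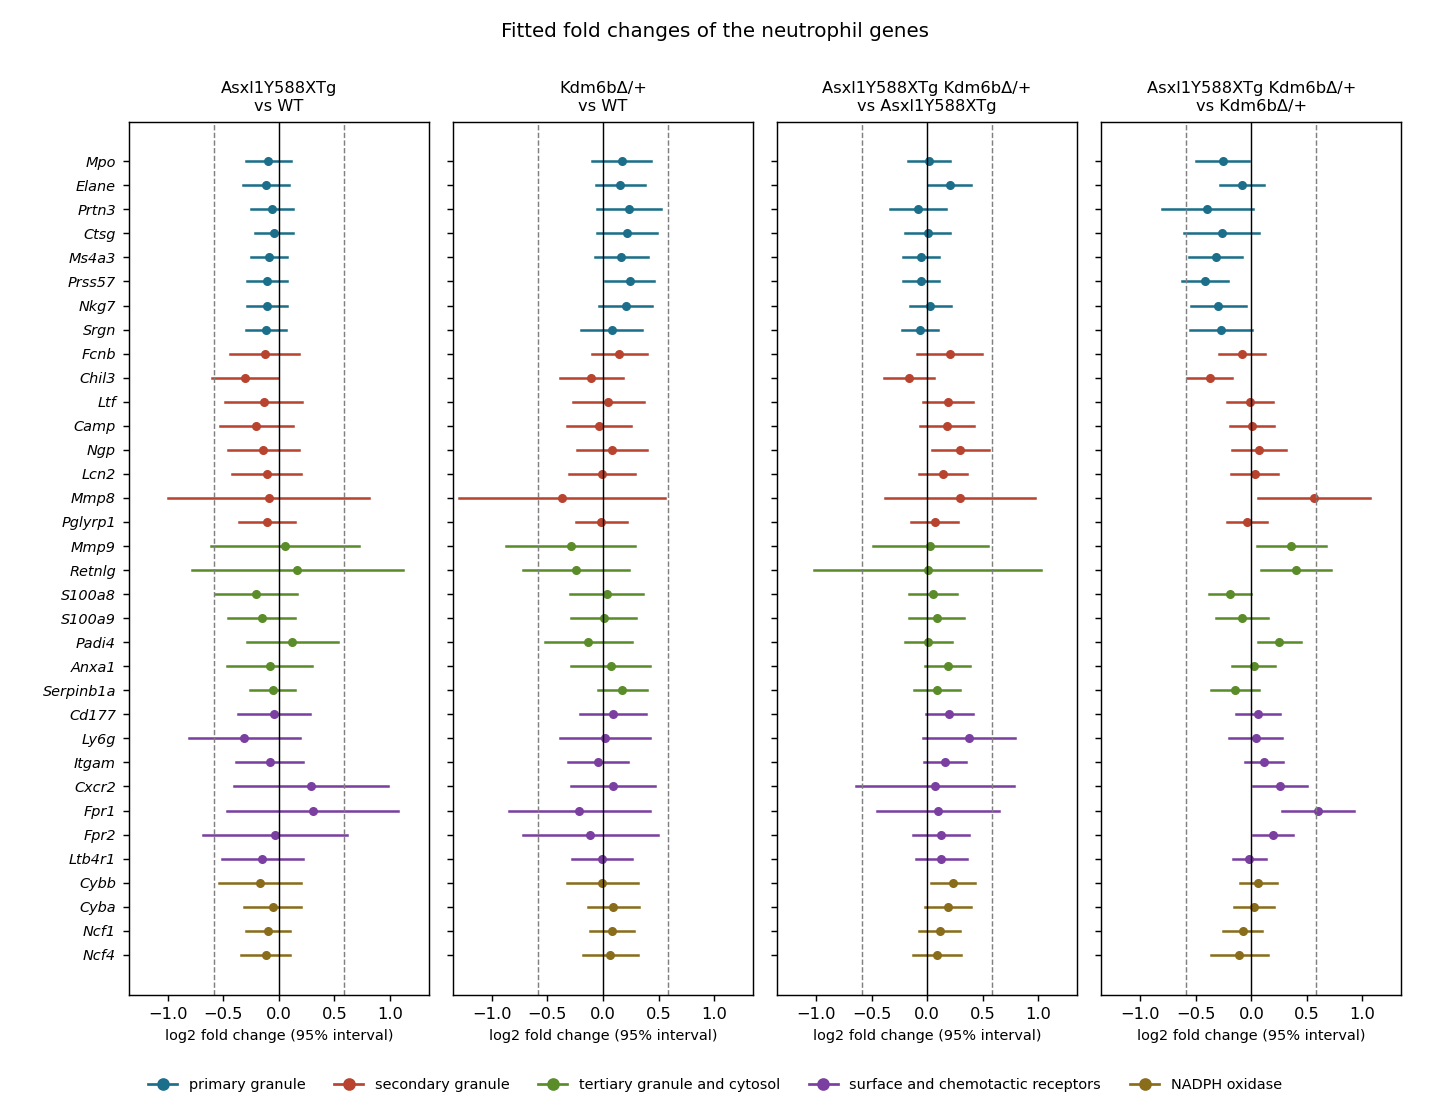
Fitted log2 fold changes (points) with 95% intervals (bars) of the 34 genes in 4 comparisons, colored by role; dashed lines mark a fold change of 1.5 in either direction. Most intervals span 0 and lie between the dashed lines, those of *Mmp8*, *Retnlg*, and *Fpr1* reach beyond them, and all 8 primary granule genes have negative values against *Kdm6b*Δ/+.

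Truncated ASXL1 alone was compared first. In *Asxl1Y588X*Tg against WT, the median log2 fold change was -0.10 over the members and -0.01 over all genes tested, with fitted values above 0 for 5 members and below 0 for 29. All 8 primary granule, all 8 secondary granule, and all 4 oxidase genes were below 0. So were 4 of 7 tertiary granule and cytosol genes and 5 of 7 receptor genes. The members at an unadjusted p under 0.05 were 1 of 34 (*Chil3*), against 9.35% of all genes tested, and none had its *Asxl1Y588X*Tg libraries all above or all below WT, against 10.5% and 5.21% of all genes. *Chil3* had a log2 fold change of -0.30 (95% interval -0.60 to -0.01), with an adjusted p of 0.518 by edgeR's quasi-likelihood test. *Ly6g* (-0.31, 95% interval -0.81 to 0.19) and *Fpr1* (0.30, 95% interval -0.47 to 1.07) had values of like size with wide intervals. Without WT replicate 2, which had the highest WT value for 25 of 34 members, the median over the members was 0.01. There were 19 members above 0 and 15 below. A rise without that library follows from its values and is no separate support for the lack of a shift. For the primary granule genes (median -0.10 with all libraries), replicate 2 was instead the lowest WT library in all 8.

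Loss of 1 *Kdm6b* allele on the WT background left no member called either. In *Kdm6b*Δ/+ against WT, the median log2 fold change was 0.06 over the members and 0.00 over all genes. All 8 primary granule genes had fitted values above 0, with a median of 0.19, and 1 of 34 members (*Prss57*) had an unadjusted p under 0.05, against 3.49% of all genes. *Prss57* gave 0.24 (95% interval 0.02 to 0.46), with an adjusted p of 0.9999 by edgeR's quasi-likelihood test. *Prtn3* (0.24) and *Ctsg* (0.22) were next to it in that group, while *Mmp8* (-0.37), *Mmp9* (-0.29), and *Retnlg* (-0.24) had the lowest fitted values of all members. No member had its *Kdm6b*Δ/+ libraries all above or all below WT, against 4.13% and 4.80% of all genes. Leaving out WT replicate 2 turned *Mmp8*, *Mmp9*, and *Retnlg* to 0.05, 0.03, and 0.03 and put 33 of 34 members above 0, with none called. That library had the highest WT value for 25 of 34 members, so a rise without it follows from its values and is no separate support. The median was -0.03 without WT replicate 1 and -0.04 without WT replicate 3.

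Loss of the allele on the *Asxl1Y588X*Tg background gave fitted values above 0 for most members. In *Asxl1Y588X*Tg *Kdm6b*Δ/+ against *Asxl1Y588X*Tg, 29 of 34 members were above 0, and the median was 0.09 over the members and 0.00 over all genes tested. Unadjusted p-values under 0.05 were found for 3 members, all with higher values, against 15.4% of all genes (5.64% higher and 9.81% lower). These were *Ngp* at 0.30 (95% interval 0.04 to 0.55), *Cybb* at 0.23 (95% interval 0.04 to 0.43), and *Elane* at 0.20 (95% interval 0.01 to 0.39), with adjusted p-values of 0.243, 0.242, and 0.290 by edgeR's quasi-likelihood test. *Asxl1Y588X*Tg *Kdm6b*Δ/+ libraries were all above *Asxl1Y588X*Tg for 2 members (*Elane* and *Cybb*), against 7.11% of all genes, and all below for none, against 14.1%. *Cybb* lies on chromosome X, and Y-linked transcripts marked 3 of 3 libraries of the former genotype and 1 of 3 of the latter. *Ly6g* had the largest fitted value, 0.37 (95% interval -0.04 to 0.79). Without *Asxl1Y588X*Tg *Kdm6b*Δ/+ replicate 1, the library with the lowest neutrophil values of its genotype, the median was 0.18, with none called. A rise without the lowest library follows from its values and is no separate support.

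*Asxl1Y588X*Tg *Kdm6b*Δ/+ cells were also compared with WT. Y-linked transcripts marked 3 of 3 libraries of the former and 0 of 3 of the latter, so genotype and sex cannot be told apart here. The median was 0.04 over the members, with 20 above 0 and 14 below, and 2 members had an unadjusted p under 0.05, against 6.79% of all genes. *Chil3* had a log2 fold change of -0.47 (95% interval -0.79 to -0.15) and *Srgn* of -0.18 (95% interval -0.36 to -0.0004), with adjusted p-values of 0.515 and 0.734 by edgeR's quasi-likelihood test. *Srgn* was the only member with all *Asxl1Y588X*Tg *Kdm6b*Δ/+ libraries below WT, against 6.87% of all genes, and none had them all above, against 6.68%. The median was -0.03 without WT replicate 1, -0.04 without WT replicate 3, and -0.01 without *Asxl1Y588X*Tg *Kdm6b*Δ/+ replicate 2. Without WT replicate 2 it was 0.16, with none called. That library had the highest WT value for most members, so this rise follows from its values and is no separate support.

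Primary granule genes had fitted values below 0 in *Asxl1Y588X*Tg *Kdm6b*Δ/+ against *Kdm6b*Δ/+, the comparison for truncated ASXL1 where both groups carry the deletion. All 8 were below 0, with a median of -0.28, and 4 of them had an unadjusted p under 0.05: *Mpo* (-0.26), *Ms4a3* (-0.32), *Prss57* (-0.42), and *Nkg7* (-0.30). The other groups lay on both sides of 0, with 4 genes above and 4 below for the secondary granule, 4 and 3 for the tertiary granule and cytosol, 6 and 1 for the receptors, and 2 and 2 for the oxidase. The 7 members at an unadjusted p under 0.05 with values above 0 were *Fpr1* at 0.60 (95% interval 0.27 to 0.93), *Mmp8* at 0.56 (95% interval 0.06 to 1.07), *Retnlg* at 0.40 (95% interval 0.08 to 0.72), *Mmp9* at 0.36 (95% interval 0.05 to 0.67), *Cxcr2* at 0.26, *Padi4* at 0.25, and *Fpr2* at 0.19. *Chil3* (-0.38, 95% interval -0.58 to -0.17) and *S100a8* (-0.19, 95% interval -0.38 to -0.01) were the other members at an unadjusted p under 0.05 with values below 0. In all, 13 of 34 members (38.2%) had an unadjusted p under 0.05, 7 higher and 6 lower, against 12.2% of all genes tested (6.54% higher and 5.67% lower). None was called: the lowest adjusted p-values by edgeR's quasi-likelihood test were 0.146 for *Prss57*, 0.176 for *Chil3*, and 0.178 for *Fpr1*. Libraries did not overlap for 2 members that were higher (*Padi4* and *Fpr1*), against 9.32% of all genes, and for 3 that were lower (*Prss57*, *Chil3*, and *S100a8*), against 9.57%. By DESeq2, *Fpr1* was called with an adjusted p of 0.0261, while *Prss57* (0.0123) and *Chil3* (0.00891) had a fold change under 1.5. The 13 members became 3 without *Kdm6b*Δ/+ replicate 3, 5 without *Kdm6b*Δ/+ replicate 1, and 7 without *Asxl1Y588X*Tg *Kdm6b*Δ/+ replicate 3, where the shares of all genes were 10.5%, 10.5%, and 7.79%. The median was -0.01 over all members and 0.11 over the receptors, against 0.00 over all genes tested.

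The interaction subtracts the difference between *Kdm6b*Δ/+ and WT from the difference between *Asxl1Y588X*Tg *Kdm6b*Δ/+ and *Asxl1Y588X*Tg. The median was 0.07 over the members and -0.02 over all genes, and 1 of 34 members had an unadjusted p under 0.05 (*Prss57*, -0.31, 95% interval -0.59 to -0.04, adjusted p 0.680 by edgeR's quasi-likelihood test), against 6.87% of all genes. Fitted values were below 0 for 7 of 8 primary granule genes, with a median of -0.21. They were above 0 for 7 of 8 secondary granule genes and 6 of 7 tertiary granule and cytosol genes. The same held for 6 of 7 receptor genes and 4 of 4 oxidase genes. The interval lay within 0.58 of 0 for 20 of 34 members, so this test was less precise than the pairwise ones. The median was -0.09 without WT replicate 2. That change follows from the high values of that library and is no separate support.

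**Figure D4:**
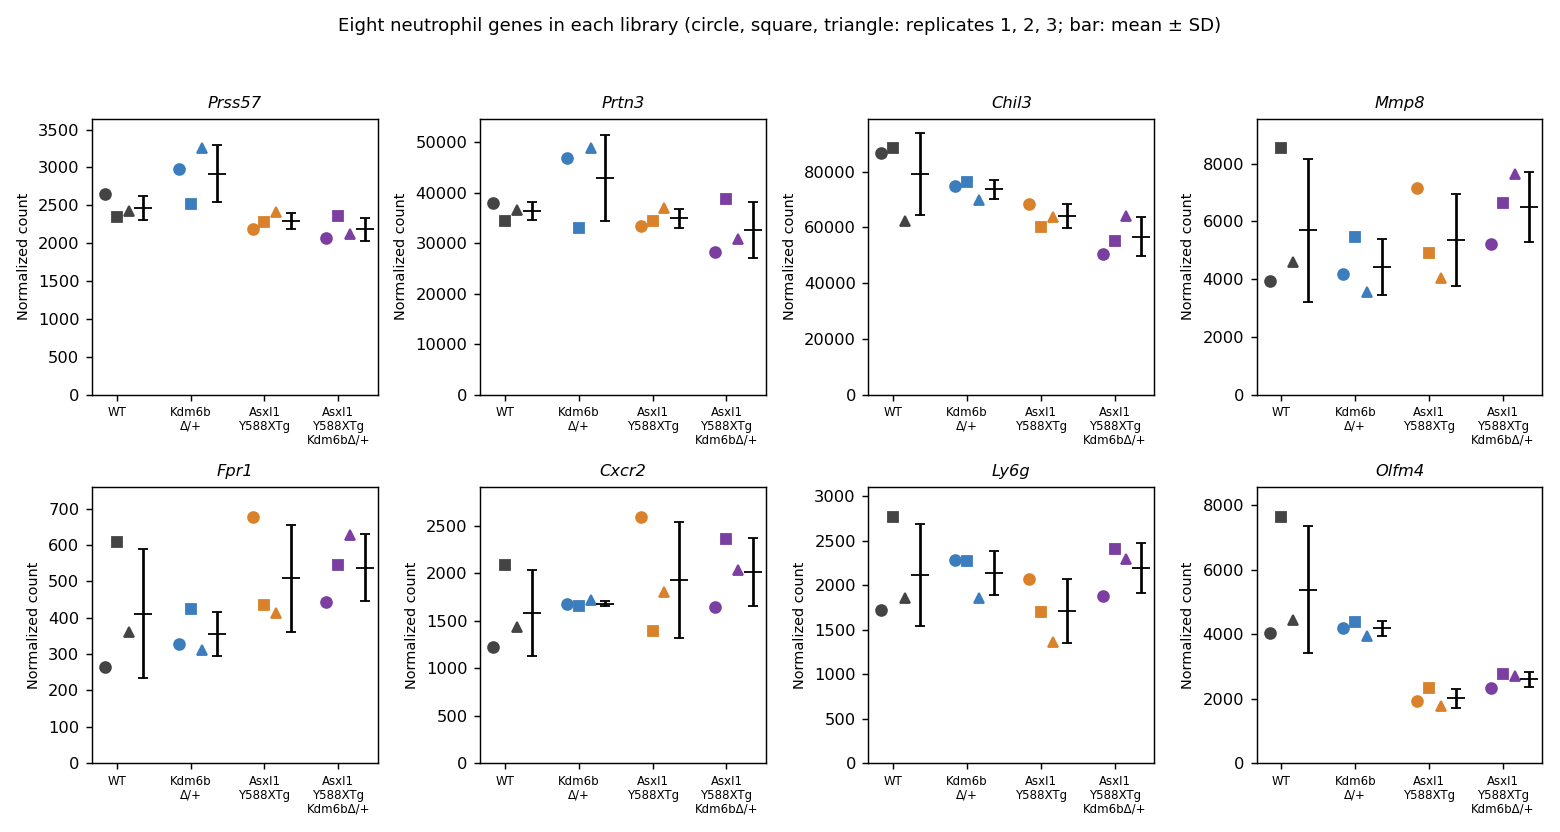
Normalized counts of 7 of the 34 genes and of *Olfm4*, another neutrophil gene, per library (circle, square, and triangle for replicates 1, 2, and 3; bars, mean ± SD of 3 mice). *Prss57* and *Chil3* are lower and *Fpr1* is higher in every *Asxl1Y588X*Tg *Kdm6b*Δ/+ library than in every *Kdm6b*Δ/+ library, and *Olfm4* is lower in every library with the transgene than in every library without it.

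Other genes of the neutrophil program gave the same count but for 1 gene. Of 54 further genes listed for granules, receptors, and transcription factors, 51 were tested, and 0 were called in *Asxl1Y588X*Tg against WT, *Kdm6b*Δ/+ against WT, *Asxl1Y588X*Tg *Kdm6b*Δ/+ against *Asxl1Y588X*Tg, *Asxl1Y588X*Tg *Kdm6b*Δ/+ against WT, and the interaction by edgeR's quasi-likelihood test, with 5, 3, 10, 5, and 2 of them at an unadjusted p under 0.05, against 9.35%, 3.49%, 15.4%, 6.79%, and 6.87% of all genes tested. The shares of all genes called were, in the same order, 1.61%, 0.0948%, 1.74%, 0.215%, and 0.0126%. In *Asxl1Y588X*Tg *Kdm6b*Δ/+ against *Kdm6b*Δ/+, 8 of the 51 had an unadjusted p under 0.05, against 12.2% of all genes, and 1 was called, against 0.0948% of all genes. This was *Olfm4*, which encodes olfactomedin 4, a secondary granule protein of a subset of neutrophils. It was at -0.68 (95% interval -0.86 to -0.51) with an adjusted p of 0.00495 by edgeR's quasi-likelihood test. Its normalized counts were 4043, 7637, and 4434 in WT, 4195, 4386, and 3942 in *Kdm6b*Δ/+, 1932, 2324, and 1757 in *Asxl1Y588X*Tg, and 2327, 2748, and 2714 in *Asxl1Y588X*Tg *Kdm6b*Δ/+, and every library with the transgene was below every library without it. Against WT, *Olfm4* was at -1.43 (95% interval -2.05 to -0.81) in *Asxl1Y588X*Tg and at -1.04 (95% interval -1.58 to -0.49) in *Asxl1Y588X*Tg *Kdm6b*Δ/+, with adjusted p-values of 0.0604 and 0.324 that did not pass the threshold. The call was lost with all 4 genotypes in 1 fit (adjusted p 0.438 by edgeR's quasi-likelihood test) and with Y-linked transcripts as a term in that fit (0.499).

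The most abundant of the further granule genes, *Lyz2* (lysozyme) and *Hp* (haptoglobin), had log2 fold changes of -0.15 and -0.04 in *Asxl1Y588X*Tg against WT and of -0.01 and -0.21 in *Asxl1Y588X*Tg *Kdm6b*Δ/+ against *Kdm6b*Δ/+. Among receptors, *Itgb2*, the partner chain of CD11b, and *Itgb2l*, a related neutrophil integrin, were at 0.16 and 0.36 in *Asxl1Y588X*Tg *Kdm6b*Δ/+ against *Asxl1Y588X*Tg. Of 11 transcription factors, the most abundant, *Myb*, which is active in progenitors, was at -0.17 (95% interval -0.32 to -0.01) in *Asxl1Y588X*Tg *Kdm6b*Δ/+ against *Kdm6b*Δ/+. Its libraries did not overlap there, with the former all below the latter, as for 9.57% of all genes tested. *Spi1*, which encodes PU.1, was at -0.06 (95% interval -0.25 to 0.13) in the same comparison. None of the 11 was called in any comparison.

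Markers of other cells moved between the same libraries. Of 9 markers of stem and multipotent progenitor cells, 7 were called higher in *Asxl1Y588X*Tg against WT, where 1.61% of all genes were called. In *Asxl1Y588X*Tg *Kdm6b*Δ/+ against *Asxl1Y588X*Tg, 5 were called lower, where 1.74% of all genes were called. The 9 markers summed to 102 to 133 CPM in WT, 258 to 323 in *Asxl1Y588X*Tg, and 105 to 155 in *Asxl1Y588X*Tg *Kdm6b*Δ/+. Eosinophil markers summed to 2441 to 4180 CPM in WT and 1051 to 1937 in *Asxl1Y588X*Tg. All 8 were lower in *Asxl1Y588X*Tg at an unadjusted p under 0.05, against 2.05% of all genes, with 0 called. In *Asxl1Y588X*Tg *Kdm6b*Δ/+ against *Kdm6b*Δ/+, 7 of the 8 had an unadjusted p under 0.05 and lower values, against 5.67% of all genes. Of these, 1 was called (*Ear6*, adjusted p 0.0328 by edgeR's quasi-likelihood test), against 0.0948% of all genes. The 8 markers summed to 1767 to 2103 CPM in *Asxl1Y588X*Tg *Kdm6b*Δ/+ and 2293 to 3011 in *Kdm6b*Δ/+. In the same comparison, the 5 megakaryocyte markers tested all had an unadjusted p under 0.05 and higher values, against 6.54% of all genes. Of these, 1 was called (*Itga2b*, adjusted p 0.0184 by edgeR's quasi-likelihood test). Megakaryocyte markers summed to 161 to 247 CPM in *Asxl1Y588X*Tg *Kdm6b*Δ/+ and 84.7 to 103 in *Kdm6b*Δ/+. Of the 9 stem and progenitor markers, 5 had higher values at an unadjusted p under 0.05, against the same 6.54%, with 0 called. In *Asxl1Y588X*Tg *Kdm6b*Δ/+ against WT, 2 of 9 erythroid markers were called lower and 1 megakaryocyte marker higher, where 0.215% of all genes were called. The lowest adjusted p-values of the 2 lists were 0.00763 and 0.0241 by edgeR's quasi-likelihood test. WT replicate 2, the library with the highest sums for 4 of the 5 groups of neutrophil genes, was also the highest for eosinophil markers and the lowest for erythroid markers (657 CPM, against 748 to 1486 in the other 11 libraries). B, T, and NK cell markers ranged from 216 to 1284 CPM and monocyte and macrophage markers from 1451 to 1879 CPM. The part of these shifts in the neutrophil values was not tested.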

How the data were processed

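LK cells were enriched by magnetic beads from single mice. According to the submitters' processing notes, reads were checked with FastQC, trimmed with Trimmomatic, aligned to mm10 with STAR, and counted with HTSeq; the authors deposited raw counts per gene, without normalization. The annotation and strand setting of the counting are not given in the sources used here.

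Counts were tested in R 4.3.3 with edgeR 4.0.16 (filterByExpr over the 4 genotypes, TMM, robust quasi-likelihood fit on the 6 libraries compared; interaction on all 12) and adjusted by Benjamini-Hochberg over all genes tested. DESeq2 1.42.0, other scalings, filters, and fits were alternatives. The procedure was tested on simulated data. Lengths and positions came from GENCODE vM21 (mm10), matched by symbol for 96.2% of genes (97.8% of counts), and promoter windows from RefSeq.

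The members and lists were chosen with earlier results of these data known. Values per library are given for the 2 members with the most counts in each role, and, in each pairwise comparison, for the 3 with the largest change (mean normalized count of at least 100) and the 3 with the lowest p. Of the further neutrophil genes, those called and the 2 most abundant per list are named. Members named for the interaction, other members with an unadjusted p under 0.05, and those first or last in a ranking were picked after their values were seen. Libraries from mice with the same replicate number did not deviate together (median r -0.03 over 18 pairs, from -0.11 to 0.07). Replicates of a genotype differed more than counting noise (chi-square per gene 7.80 to 32.8).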

Additional observations from a re-analysis of the deposited data

How the results depend on the processing

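Of 83 alternative values each, 82 of the member medians stayed within the spread between replicates and 80 of the counts of members called kept to 0. The exceptions were 1 member called in *Asxl1Y588X*Tg *Kdm6b*Δ/+ against *Kdm6b*Δ/+ with DESeq2 and 1 with no filter on low counts (*Fpr1*, log2 0.60 and 0.61, adjusted p 0.0261 by DESeq2 and 1.53e-04 by edgeR), and 1 in the interaction with no filter (*Mmp8*, 0.66, adjusted p 9.80e-05 by edgeR). Without the filter the calls over all genes went from 15 to 211 and from 2 to 258. A median could stay within the spread between replicates and still change sign. This happened, with single libraries left out, in *Asxl1Y588X*Tg, *Kdm6b*Δ/+, and *Asxl1Y588X*Tg *Kdm6b*Δ/+, each against WT. The interaction median ranged from -0.091 (without WT replicate 2) to 0.16 over the libraries left out. Fitted values changed sign for *Kdm6b* in *Asxl1Y588X*Tg against WT (-0.0022 to 0.17 over the libraries left out) and, in *Kdm6b*Δ/+ against WT, for *Retnlg* with a term for Y-linked transcripts (0.12) and for *Mmp8* (-0.58 to 0.047 over the libraries left out), *Mmp9* (-0.47 to 0.031), and *Retnlg* (-0.38 to 0.031), each highest without WT replicate 2; none of these was called. *Olfm4* lost its call in 1 fit of all 4 genotypes (-0.69) and with the Y-linked term (-0.72). The replicate block changed no call of a member: 0 were called in each comparison, and the members at an unadjusted p under 0.05 were 0, 2, 3, 3, 10, and 1 (against 2.74% to 13.1% of all genes) in *Asxl1Y588X*Tg against WT, *Kdm6b*Δ/+ against WT, *Asxl1Y588X*Tg *Kdm6b*Δ/+ against *Asxl1Y588X*Tg, *Asxl1Y588X*Tg *Kdm6b*Δ/+ against WT, *Asxl1Y588X*Tg *Kdm6b*Δ/+ against *Kdm6b*Δ/+, and the interaction. The cause of these changes was not tested. With 3 mice per genotype, the 95% intervals of *Mmp8*, *Retnlg*, and *Fpr1* reached beyond a 1.5-fold change in each pairwise comparison.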
